A study of Mus musculus with 35 samples.

Results

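The imprinted *Dlk1-Dio3* locus of mouse chromosome 12 was followed through 5 genes, the long noncoding RNAs *Meg3*, *Rian* and *Mirg* and the protein-coding genes *Dlk1* and *Dio3*. They were taken by symbol from a table of gene RNA levels, so that the locus held 5 of 26127 rows. Of these 5, *Meg3*, *Rian* and *Mirg* were among the 11615 genes tested, which had an RPKM (a read count divided by exon length in kilobases and by the library's mega-reads) above 1 in at least 2 libraries. *Dlk1* and *Dio3* stayed below that level everywhere. *Meg3* and *Mirg* passed it only through the libraries where they were high, so their presence among the tested genes is not independent of the differences below.

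In mouse tissues the locus is expressed by parental origin. The paternal chromosome carries a methylated control region upstream of *Meg3* and expresses *Dlk1*, *Rtl1* and *Dio3*, whereas the maternal chromosome lacks that methylation and expresses *Meg3*, *Rian* and *Mirg*, with the small nucleolar RNAs and microRNAs that lie along them. DNMT1 copies methylation to the new strand at replication, and pluripotent cells in culture are known to lose expression of the maternal RNAs at this locus. The reads used here carry no parental label, so the chromosome of origin was not measured.

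After removal of ribosomal RNA, total RNA was sequenced in embryonic stem cells (ESCs) taken 0, 1, 3, 6, 9, 11, 17 and 25 days after induced deletion of *Dnmt1*. KO libraries were labelled as *Dnmt1* knockout and WT libraries as wildtype control, with 2 libraries for each genotype and day and 3 at day 1, and there was 1 further library from cells labelled Dicer KO. The labels give the strain of all libraries as E14, whereas the methods describe 1 line of *Dnmt1* loxP/loxP ESCs on C57BL/6, from which the Dicer KO cells were derived by genome editing. In that line 4OHT (tamoxifen) induces Cre, and the cells grew in serum and LIF with or without feeder cells, with nothing in the labels on which libraries had feeders. The labels do not say whether replicates came from separate cultures, so p-values below measure only the spread between these libraries.

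Library depth ranged from 24.3 to 72.1 mega-reads, and reads counted in gene exons from 5.20 to 18.0 mega-reads. Exonic reads made up 20.6% to 22.4% of the total in 20 libraries (days 0, 3, 6 and 9 and the first and second replicates of day 1) and 44.7% to 49.8% in 15 (Dicer KO, days 11, 17 and 25, and the third replicate of day 1). They are called low-share and high-share libraries. The sets were found in the data, and they follow the day. *Dnmt1*, on chromosome 9, had between 14.1 and 34.8 RPKM in the 15 WT libraries of days other than 6 and between 2.58 and 4.40 RPKM in the KO libraries of days 9 to 25. At day 0 it was at 18.7 and 18.5 RPKM in KO. At day 1 the KO libraries had 2.86, 3.04 and 8.13 RPKM. At day 6 the libraries labelled WT had 3.22 and 3.40 RPKM and those labelled KO 20.2 and 20.4, against the labels. The labels were kept, and day 6 is given apart from the other days.

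The annotation of the files' genome build, NCBIM37, places all 5 genes on the plus strand of chromosome 12. *Dlk1* (ENSMUSG00000040856.11, 110691033 to 110701546, exons 5657 bases in all) comes first, followed by *Meg3* (ENSMUSG00000021268.10, 110779211 to 110809936, 18089 bases) and *Rian* (ENSMUSG00000091793.1, 110842155 to 110899919, 8197 bases). *Mirg* (ENSMUSG00000091158.1, 110973191 to 110987665, 3175 bases) and *Dio3* (ENSMUSG00000075707.4, 111517278 to 111519307, 2030 bases in 1 exon) follow. *Rtl1* lies on the minus strand between *Meg3* and *Rian*.

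Because DNMT1 acts on CG dinucleotides, the 300 bases around the annotated starts of the 3 noncoding RNAs (250 before and 50 from the start on) are shown from NCBIM37, plus strand, with each CG in capitals. Their methylation was not measured here.
Meg3, chr12:110778961-110779260: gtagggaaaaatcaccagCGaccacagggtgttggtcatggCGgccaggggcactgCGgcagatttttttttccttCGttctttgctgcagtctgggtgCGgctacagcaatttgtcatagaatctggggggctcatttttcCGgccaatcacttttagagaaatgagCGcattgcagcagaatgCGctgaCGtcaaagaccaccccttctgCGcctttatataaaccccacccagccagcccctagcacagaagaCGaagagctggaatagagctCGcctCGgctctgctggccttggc
Rian, chr12:110841905-110842204: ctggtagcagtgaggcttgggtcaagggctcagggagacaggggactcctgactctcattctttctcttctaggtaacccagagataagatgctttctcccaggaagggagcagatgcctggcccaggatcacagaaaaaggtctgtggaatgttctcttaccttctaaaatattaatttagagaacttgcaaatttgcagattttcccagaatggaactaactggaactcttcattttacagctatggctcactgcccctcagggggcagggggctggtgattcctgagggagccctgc
Mirg, chr12:110972941-110973240: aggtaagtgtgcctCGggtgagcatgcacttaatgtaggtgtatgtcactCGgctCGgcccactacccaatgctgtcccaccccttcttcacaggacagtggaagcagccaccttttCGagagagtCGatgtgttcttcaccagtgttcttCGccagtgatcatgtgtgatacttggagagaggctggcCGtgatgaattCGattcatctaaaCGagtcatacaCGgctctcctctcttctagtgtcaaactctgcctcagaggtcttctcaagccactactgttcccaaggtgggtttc
The *Meg3* window held 13 CG and the *Mirg* window 10, and 44.3% and 50.7% of the 26122 windows of the same length at the starts of all rows held at least as many. The *Rian* window held none. The windows of *Dlk1* and *Dio3* held 9 and 31 CG. The letters TATAAA, searched on the gene's strand from 40 to 10 bases before the start, stood there in *Meg3* and in no other of the 5 genes, and in 2.31% of all windows. TGCCGC, searched on both strands as the letters bound by ZFP57, a protein that keeps imprints methylated, was found once in the *Meg3* window and not in the other 4, and 13.0% of all windows held it. A match of letters is a description of the sequence and no measure of binding.

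The 3 noncoding RNAs also carry microRNAs, which this RNA table does not measure. Of 58 microRNA hairpins of RefSeq (GRCm38.p6) found by exact match in the locus on NCBIM37, 54 lay on the plus strand between the start of *Meg3* and the end of *Mirg*. Within the annotated genes there were 1 in *Meg3*, 3 in *Rian* and 10 in *Mirg*, and 27 lay between *Rian* and *Mirg*. The following mature sequences show what each of the 3 RNAs spans, with the seed (bases 2 to 8) in capitals.
miR-770-5p (in Meg3): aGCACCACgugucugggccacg
miR-370-3p (in Rian): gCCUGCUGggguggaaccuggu
miR-154-5p (in Mirg): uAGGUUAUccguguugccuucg
miR-377-3p (in Mirg): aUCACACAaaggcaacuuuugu
miR-453 (in Mirg): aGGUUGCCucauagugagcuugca
miR-496a-5p (in Mirg): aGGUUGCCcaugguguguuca
miR-410-5p (in Mirg): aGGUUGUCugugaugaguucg
miR-494-5p (between Rian and Mirg): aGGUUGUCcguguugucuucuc
Within *Mirg*, miR-453 and miR-496a-5p shared their seed, and miR-410-5p shared its seed with miR-494-5p.

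*Rian*, the host of a cluster of small nucleolar RNAs, had the highest RPKM of the 5, which is a level per exon length, in KO libraries of every day but not in all WT libraries. In the WT means of day 11 it was below *Dio3*, and in those of days 17 and 25 below *Dlk1* and *Dio3*. At day 0 it had 1.03 and 0.948 RPKM in WT and 1.03 and 1.1003 RPKM in KO. At day 3 it had 0.590 and 0.555 RPKM in WT and 1.11 and 1.13 RPKM in KO. Both KO libraries of day 3 lay above both WT libraries, close to the highest day 0 library. At day 9 WT had 0.790 and 0.607 RPKM and KO 17.9 and 17.3. At day 11 the values were 0.0150 and 0.0887 RPKM in WT and 38.1 and 34.05 in KO. From day 9 on the genotypes were far apart, and the WT level itself was lower at day 11 than at day 9. A set of 4 genes of chromosome Y summed to at least 18.3 RPKM in KO and at most 0.477 RPKM in WT from day 11 on. At day 17 WT had 0.0206 and 0.0286 RPKM of *Rian* and KO 40.1 and 37.9. At day 25 WT had 0.0203 and 0.0135 RPKM, from 5 and 3 reads, and KO 57.2 and 59.6 RPKM, from 13959 and 14979 reads.

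The differences of *Rian* between KO and WT were 0.10 ± 0.48 at day 0, 0.15 ± 0.40 at day 1 and 0.86 ± 0.48 at day 3 (log2(RPKM + 0.1), limma estimate ± SE), none of which passed the test (adjusted p 1 at each). They were 4.48 ± 0.48 at day 9, 7.94 ± 0.48 at day 11, 8.29 ± 0.48 at day 17 and 8.97 ± 0.48 at day 25, with limma adjusted p of 1.83e-06, 7.9e-11, 3.03e-11 and 6.2e-12. *Rian* was thus called higher in KO at each of these 4 days, as were 2.46%, 4.37%, 9.13% and 9.6% of all genes tested at days 9, 11, 17 and 25. At days 0 and 1 no gene was called higher (0%), and 9 and 160 genes had an unadjusted p under 0.05 at these days in either direction. The ratio of pooled reads per mega-read, KO to WT, was 23.7 (95% exact counting interval 21.8 to 25.8) at day 9 and 3423 (1737 to 7929) at day 25. These intervals, and those that follow, hold counting error alone, as reads without molecular identifiers are not independent molecules.

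**Figure D1:**
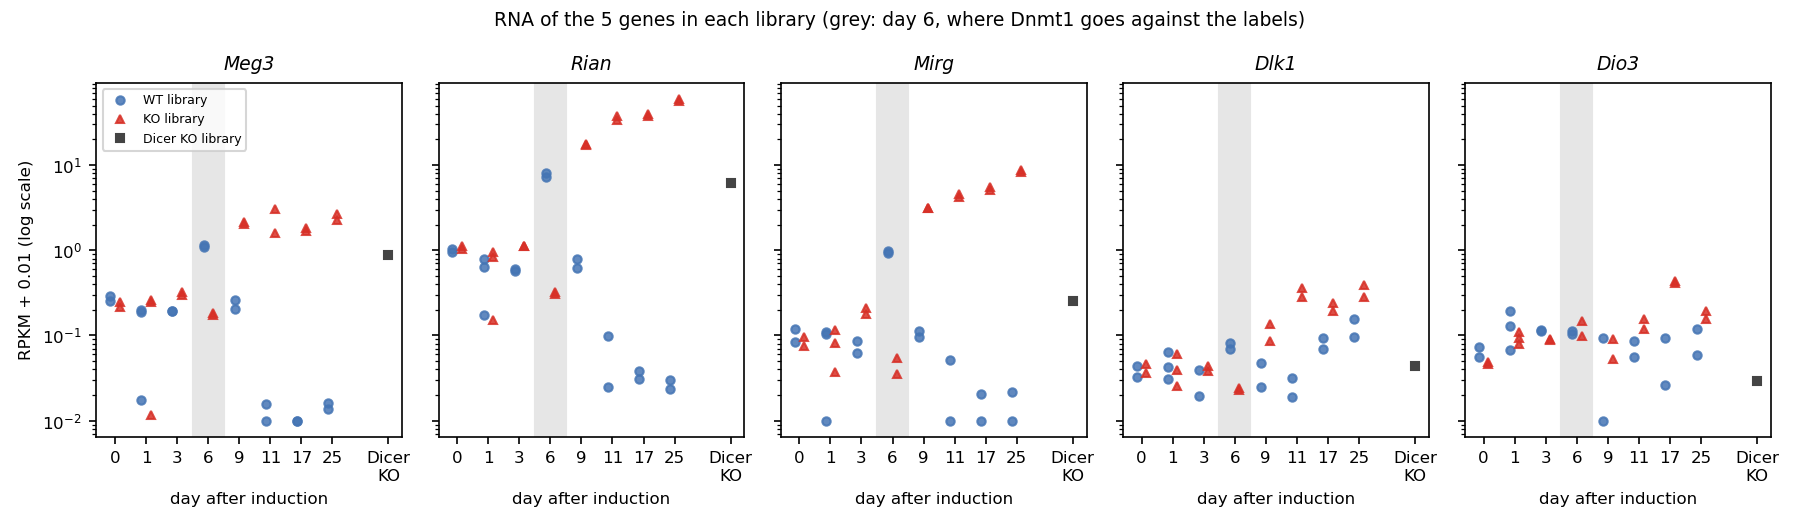
RPKM + 0.01 of *Meg3*, *Rian*, *Mirg*, *Dlk1* and *Dio3* on a log axis against the day after induction, with 1 point for each library (circles WT, triangles KO, square Dicer KO). From day 9 on the KO libraries of the 3 noncoding RNAs lie apart from the WT libraries, and at day 6 (grey) the libraries labelled WT are the high ones.

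*Meg3*, the first of the maternally expressed RNAs and the one next to the control region, rose to a lower level. At day 3 it had 0.183 and 0.181 RPKM in WT and 0.292 and 0.311 RPKM in KO. At day 9 it had 0.252 and 0.196 RPKM in WT and 2.11 and 2.05 RPKM in KO. The WT libraries of days 11, 17 and 25 held between 0 and 4 reads of *Meg3*, at most 0.00611 RPKM. The KO libraries had 1.58 and 3.07 RPKM at day 11, 1.82 and 1.65 RPKM at day 17 and 2.67 and 2.24 RPKM at day 25. The 2 KO libraries of day 11 differed by more than those of any other day.

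The difference of *Meg3* was 0.51 ± 0.45 at day 3 (log2(RPKM + 0.1) ± SE, limma adjusted p 1), where 0.603% of all genes were called higher. It was 2.76 ± 0.45 at day 9, 4.49 ± 0.45 at day 11, 4.20 ± 0.45 at day 17 and 4.60 ± 0.45 at day 25, with limma adjusted p of 0.000443, 3.03e-07, 5.32e-07 and 1.55e-07. The call at day 9 was lost with a pseudocount of 0.01 (adjusted p 0.118) and with voom on recovered reads (0.127). In pooled reads per mega-read *Meg3* was 8.76-fold (7.89 to 9.73) higher in KO at day 9 and 507-fold (217 to 1563) higher at day 25. At day 17, when WT had no read, it was at least 622-fold higher against a floor of 3 reads over both WT libraries.

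*Mirg*, which spans part of the microRNA cluster, had the lowest mean RPKM of the 3 noncoding RNAs in WT at days 0, 1, 3 and 9 and passed *Meg3* in KO from day 9 on. In the WT means of days 11, 17 and 25 *Meg3* was the lowest. At day 3 it had 0.0525 and 0.0768 RPKM in WT and 0.170 and 0.202 RPKM in KO, from 8 and 9 reads and 20 and 16 reads. At day 9 WT had 0.0846 and 0.104 RPKM and KO 3.14 and 3.15. In KO it was at 4.27 and 4.53 RPKM at day 11, at 5.08 and 5.49 at day 17 and at 8.40 and 8.84 at day 25, each day above the one before. The WT libraries of these 3 days held at most 5 reads, and 3 of the 6 held none.

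*Mirg* differed by 0.80 ± 0.27 at day 3 (log2(RPKM + 0.1) ± SE, limma adjusted p 0.332), 4.06 ± 0.27 at day 9, 5.24 ± 0.27 at day 11, 5.68 ± 0.27 at day 17 and 6.37 ± 0.27 at day 25. The limma adjusted p from day 9 on were 2.62e-09, 6.72e-12, 1.49e-12 and 1.2e-13. In pooled reads *Mirg* was 35.1-fold (24.0 to 53.7) higher in KO at day 9. At day 25 the ratio of 1654 reads to 1 read gave 1565, with a counting interval from 281 to 61855.

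**Figure D2:**
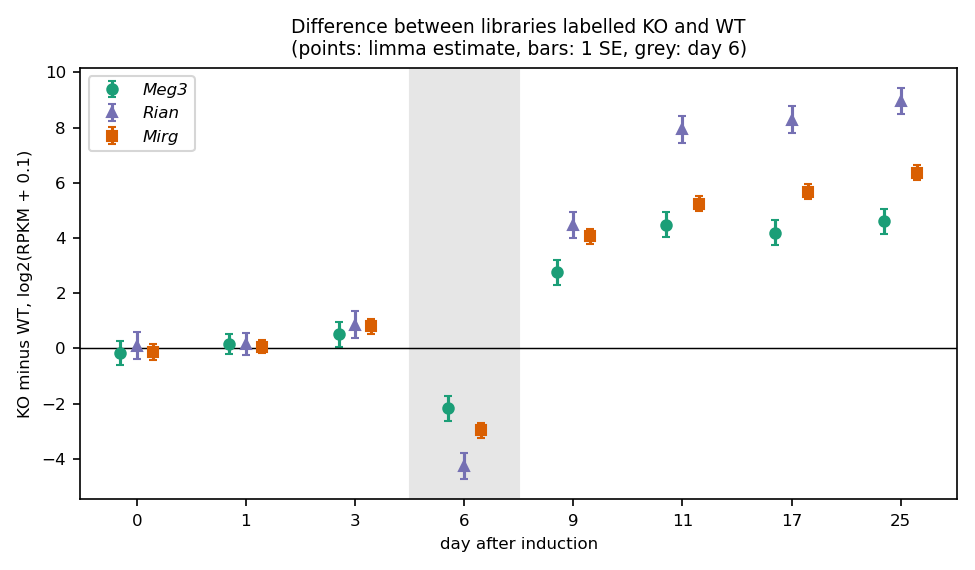
KO minus WT on the log2(RPKM + 0.1) scale for *Meg3* (circles), *Rian* (triangles) and *Mirg* (squares) against the day after induction, as limma estimates with bars of 1 SE. The estimates lie near 0 at days 0 and 1, are negative at day 6 (grey) and positive from day 9 on, with *Rian* highest at 8.97 at day 25.

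At day 3 all 3 noncoding RNAs had higher values in both KO libraries than in both WT libraries without passing the test. The fit shares 1 estimate of spread per gene over 34 libraries, including the third day 1 pair, in which *Meg3*, *Rian* and *Mirg* stood far below the other day 1 libraries. Without that pair the differences were the same and *Rian* (0.86, limma adjusted p 0.000658) and *Mirg* (0.80, 0.00299) were called higher at day 3, when 7.77% of all genes were. The fibroblast or feeder markers described below were also higher in KO at day 3, and their part in these differences was not tested.

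At day 6 the 3 RNAs followed *Dnmt1* rather than the labels. *Rian* had 7.98 and 7.25 RPKM in the libraries labelled WT and 0.294 and 0.310 in those labelled KO. *Meg3* had 1.15 and 1.08 RPKM against 0.164 and 0.176, and *Mirg* 0.983 and 0.926 RPKM against 0.0248 and 0.0450. In each case the libraries with low *Dnmt1* were the high ones, at levels between those of the KO libraries of day 3 and of day 9. As labelled, *Rian* (-4.26, limma adjusted p 4.53e-06), *Mirg* (-2.97, 2.26e-07) and *Meg3* (-2.17, 0.00571) were called lower in KO, as were 2.16% of all genes. The call of *Meg3* was lost when any 1 of the 4 libraries of day 6 was left out (highest adjusted p 0.0736).

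The change in the genotype difference between day 9 and day 25 was tested as a contrast of 4 groups. For *Rian* it was 4.49 ± 0.68 (log2 ± SE, limma adjusted p 0.000303) and for *Mirg* 2.30 ± 0.39 (0.000906), both called larger at day 25, as were 3.08% of all genes. For *Meg3* it was 1.85 ± 0.63 and did not pass (adjusted p 0.081). Day 9 and day 25 lie in different sets of libraries. Between these days *Rian* was higher in KO by day 25 and lower in WT, with 57.2 and 59.6 against 17.9 and 17.3 RPKM and 0.0203 and 0.0135 against 0.790 and 0.607 RPKM.

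Within the high-share libraries, KO at day 25 was compared with KO at day 11. *Mirg* was higher by 0.95 ± 0.27 (log2 ± SE, limma adjusted p 0.026), as 2.41% of all genes were called, and this call was lost when any 1 of the 4 libraries was left out. *Rian* was higher by 0.70 ± 0.48 (adjusted p 0.451), and *Meg3* by 0.14 ± 0.45 (adjusted p 0.914). In pooled reads per mega-read these ratios were 1.96 (1.80 to 2.13), 1.62 (1.59 to 1.65) and 1.06 (1.00 to 1.12). Between WT at day 25 and WT at day 11 none of the 3 was called, whereas 14.8% of all genes were called higher.

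*Meg3* and *Rian* rose by unequal amounts. In the WT libraries of days 0, 1, 3 and 9 with at least 50 *Rian* reads, the RPKM of *Meg3* was between 22.8% and 32.6% of that of *Rian*. In KO it was between 20.2% and 30.3% at days 0, 1 and 3, 11.8% and 11.9% at day 9, and between 3.76% and 9.02% at days 11, 17 and 25. *Mirg* moved the other way in KO up to day 9. In the same WT libraries it was between 7.802% and 10.64% of *Rian* at day 0 and between 12.91% and 15.01% at day 1. It was between 8.9025% and 13.83% in WT at day 3 and between 10.71% and 17.07% at day 9. These WT libraries held 8 to 19 *Mirg* reads each, and the low-share KO libraries of days 0 and 1 held 8 to 13. Whether the rise of *Mirg* against *Rian* in KO differed from WT was not tested. In KO it was between 5.93% and 8.28% of *Rian* at day 0, between 7.57% and 12.9% at day 1 and between 15.3% and 18.0% at day 3, with 17.6% and 18.2% at day 9 and 14.7% and 14.8% at day 25. At day 6 *Meg3* was at 14.4% and 15.0% of *Rian* in the libraries labelled WT and at 55.7% and 56.8% in those labelled KO, the highest of any library. These ratios were not tested, and the drop from day 9 to day 11 crosses the sets of libraries. Across the 16 group means on the log2 scale, Pearson r was 0.989 between *Meg3* and *Rian*, 0.972 between *Rian* and *Mirg* and 0.956 between *Meg3* and *Mirg*, as a description of points that share libraries and days.

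**Figure D3:**
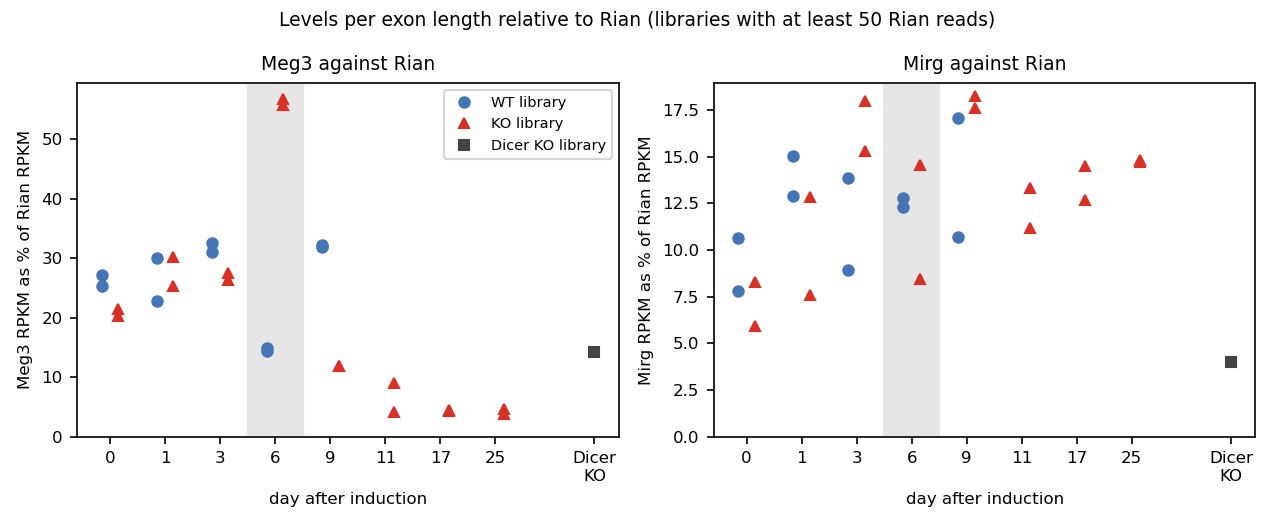
RPKM of *Meg3* (left) and *Mirg* (right) as a percentage of the RPKM of *Rian* in each library with at least 50 *Rian* reads, against the day after induction (circles WT, triangles KO, square Dicer KO). *Meg3* falls in KO from between 26.4% and 27.6% at day 3 to between 3.76% and 4.67% at day 25, while *Mirg* stays between 11.19% and 18.2% in KO from day 3 on outside day 6.

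The low level of the 3 RNAs in WT differed between the sets of libraries, as did the sum of 10 fibroblast or feeder markers described below. In the 8 low-share WT libraries of days other than 6, *Rian* had between 0.555 and 1.03 RPKM, *Meg3* between 0.177 and 0.279 and *Mirg* between 0.0525 and 0.109. In the 6 WT libraries of days 11, 17 and 25 the ranges were 0.0135 to 0.0887 RPKM, 0 to 0.00611 and 0 to 0.0409. The ranges did not overlap for any of the 3. The same split appeared within day 1, where *Rian* had 0.776 and 0.629 RPKM in the first and second WT libraries and 0.162 in the third, and 0.818 and 0.941 against 0.141 RPKM in KO.

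The marker list for fibroblasts or feeder cells held 12 genes. In each WT and KO group of days 0, 1, 3 and 9, 4 of the 12 stayed below 1 RPKM in every library, and in each group of days 11, 17 and 25, 9 or 10 did. At 0 in both libraries of a group were *Postn* and *Lum* in WT at days 11 and 17, *Lox* in WT at day 11, *Dcn* in WT at day 25 and in the libraries labelled KO at day 6, and *Lum* in KO at day 11. The collagen genes *Col1a1*, *Col1a2* and *Col3a1* had between 0.894 and 2.12 RPKM in the low-share WT libraries and at most 0.112 RPKM in WT at days 11, 17 and 25. *Sparc* had between 14.5 and 26.0 RPKM in the low-share WT libraries and between 15.4 and 37.1 RPKM in WT at days 11, 17 and 25. For *Fn1* these ranges were 12.7 to 18.1 and 8.05 to 27.4 RPKM. Leaving aside *Fn1* and *Sparc*, which were high in every library, the other 10 markers summed to between 8.94 and 13.7 RPKM in the low-share WT libraries. They summed to between 0.717 and 2.65 RPKM in WT at days 11, 17 and 25. Within low-share WT the sum was 10.6 and 8.94 RPKM at day 0, with *Rian* at 1.03 and 0.948. At day 9 it was 13.7 and 12.1 RPKM, with *Rian* at 0.790 and 0.607. In the third day 1 pair the sums were 1.37 and 1.44 RPKM. These 10 were chosen after the values were seen, and the part of feeder RNA in the WT level of the locus was not tested. In bulk RNA, fewer cells of a type and less RNA per cell cannot be told apart.

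In KO at days 11, 17 and 25 the same markers were low while the locus was high, and at day 9 both were high. At days 11, 17 and 25 the sum of the 10 markers was between 0.651 and 0.976 RPKM in KO, where *Rian* had between 34.05 and 59.6 RPKM. At day 9 the sum was 20.8 and 22.7 RPKM in KO against 12.1 and 13.7 in WT, and at day 3 it was 16.3 in both KO libraries against 9.02 and 10.5 in WT. At day 6 it was 10.6 and 13.6 RPKM in the libraries labelled WT and 6.72 and 7.29 in those labelled KO. With all 12 markers the sum lay between 24.2 and 69.7 RPKM over the WT and KO groups of all days. At day 11 the sum of all 12 was between 53.2 and 55.9 RPKM in WT and between 58.1 and 69.7 in KO. At day 25 it was between 41.4 and 45.0 RPKM in WT and between 41.7 and 47.4 in KO. The 7 ESC markers, among them *Pou5f1*, *Sox2* and *Nanog*, were all above 1 RPKM in every WT and KO group. They summed to between 193 and 195 RPKM in WT and 180 and 182 in KO at day 9. At day 25 the sums were 403 to 407 RPKM in WT and 543 to 568 in KO. At day 25 *Nanog* was called higher in KO (2.23, limma adjusted p 0.00326) and *Sall4* lower (-1.56, 0.0038), beside 9.6% and 11.3% of all genes. None of the 7 was called at days 9, 11 and 17. The 7 markers of differentiated lineages summed to between 2.59 and 7.22 RPKM.

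**Figure D4:**
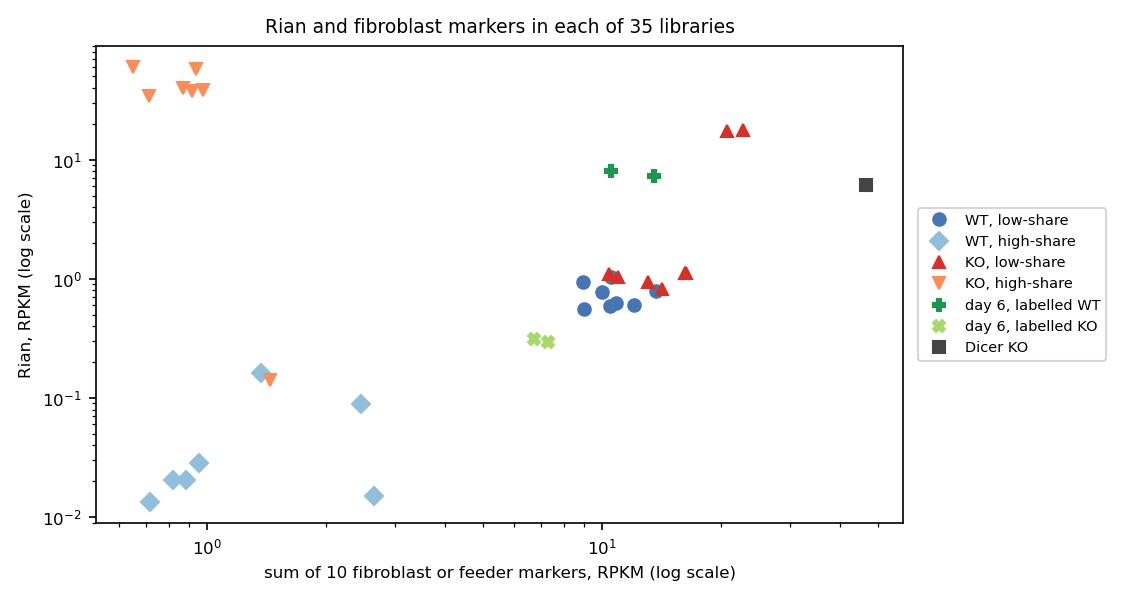
*Rian* RPKM against the summed RPKM of 10 fibroblast or feeder markers in each of the 35 libraries, both on log axes, with the sets of libraries by colour and shape. The high-share KO libraries of days 11, 17 and 25 lie at the top left, with *Rian* between 34.05 and 59.6 RPKM at marker sums below 1 RPKM, and the high-share WT libraries lie at the bottom left.

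*Dlk1*, a transmembrane protein related to the Notch ligands, was rare in all libraries, with between 0.00918 and 0.380 RPKM from 2 to 64 reads. At day 9 it had 0.0375 and 0.0145 RPKM in WT and 0.127 and 0.0759 in KO. At day 11 it had 0.0217 and 0.00918 RPKM in WT and 0.276 and 0.350 in KO. At day 25 the values were 0.147 and 0.0847 RPKM in WT and 0.380 and 0.271 in KO. From day 9 on the KO libraries lay above the WT libraries of the same day, and the WT level itself was higher at day 25 than at day 11. The ratio of pooled reads per mega-read, KO to WT, was 3.30 (1.85 to 6.13) at day 9, 20.9 (9.30 to 58.2) at day 11, 2.90 (1.80 to 4.81) at day 17 and 2.76 (1.90 to 4.11) at day 25. At day 6 *Dlk1* had 12 and 29 reads in the libraries labelled WT and 2 and 2 in those labelled KO.

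*Dio3*, the deiodinase that inactivates thyroid hormone, was also near the floor, with between 0 and 27 reads in any library. At day 17 it had 0.0832 and 0.0165 RPKM in WT, from 5 reads and 1 read, and 0.430 and 0.403 RPKM in KO, from 27 and 25 reads. At day 25 it had 0.0492 and 0.109 RPKM in WT and 0.182 and 0.145 in KO. The ratio of pooled reads was 8.37 (3.60 to 23.9) at day 17, 2.04 (0.851 to 5.25) at day 11 and 2.10 (0.915 to 5.24) at day 25. Days 0, 1, 3 and 9 gave intervals that held 1, and at day 6 *Dio3* did not follow *Dnmt1*, with 7 and 15 reads in the libraries labelled WT and 7 and 5 in those labelled KO.

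With a filter of RPKM above 0.1 in at least 2 libraries, 17480 genes were tested and included both genes. *Dlk1* was then called higher in KO by 1.83 ± 0.20 at day 11 (log2(RPKM + 0.1) ± SE, limma adjusted p 8.73e-07), by 0.84 ± 0.20 at day 17 (0.00491) and by 0.98 ± 0.20 at day 25 (0.00096). *Dio3* was called at day 17 alone, by 1.82 ± 0.27 (adjusted p 5e-05). At this filter 6.01%, 11.4% and 9.94% of all genes were called higher at days 11, 17 and 25. *Dlk1* also rose within WT from day 11 to day 25 by 0.89 ± 0.20 (adjusted p 0.00164), as 14.6% of genes did. *Dlk1* passed this filter through the KO libraries and 1 WT library, so its calls are not independent of the filter.

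Of the 30 other rows within 1 Mb of the locus on either side, 20 were tested. At day 9, 2 of them were called higher in KO and 0 lower, beside 2.46% and 0.827% of all genes. At day 11, 3 were higher and 1 lower, beside 507 and 146 of all 11615 genes tested. At day 17, 6 were higher and 0 lower, beside 1061 and 143. At day 25, 3 were called higher and 7 lower, beside 9.6% and 11.3% of all genes. Without the third day 1 pair these counts were 4 and 2 at day 9 and 7 and 10 at day 25, when the calls over all genes were 1991 higher and 1262 lower for day 9, and 4620 higher and 3035 lower for day 25 (39.8% and 26.1%). *Rtl1*, a retrotransposon-derived gene expressed from the paternal chromosome, had 0.0534 and 0.0259 RPKM in WT and 1.85 and 1.78 in KO at day 9. At day 25 it had no read in WT and 4.33 and 4.59 RPKM in KO. Its differences were 3.78 at day 9 and 5.51 at day 25 (log2(RPKM + 0.1), limma adjusted p 2.62e-09 and 4.54e-13). *Gm17639*, an annotated minus-strand gene inside the *Meg3* span, differed by 2.67 at day 9 and 4.91 at day 25 (adjusted p 0.00264 and 5.26e-07). *Rtl1* passed the filter of RPKM above 1 only through KO libraries, and *Gm17639* through KO libraries and 1 library labelled WT at day 6, so their calls are not independent of the filter. The libraries were stranded but the strand setting of the counting is not given in the sources used here, so for *Rtl1* and *Gm17639* reads from the opposite strand cannot be told apart from their own.

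Outside the interval from *Dlk1* to *Dio3* the differences at day 25 lay between -1.73 and 0.79. Of 18 tested there, 7 were lower in KO at day 25 and 1 was higher, beside 11.3% and 9.6% of all genes tested. The higher gene was *Ankrd9* (0.79, named after its values were seen). At day 25 the difference of KO from WT on the log2(RPKM + 0.1) scale was -1.73 for *Dync1h1*, the dynein heavy chain, -1.12 for *Evl*, a regulator of actin filaments, -1.1002 for *Degs2*, an enzyme of sphingolipid synthesis, and -1.09 for *Traf3*, an adaptor of immune receptors. It was -1.24 for *Gm17111*, antisense to *Dync1h1*. All 5 were also called higher in WT at day 25 than in WT at day 11, by between 0.85 (*Gm17111*) and 1.52 (*Traf3*). Between the same days in KO, *Evl* (-0.896, limma adjusted p 0.00452), *Degs2* (-1.0016, 0.0195) and *Gm17111* (-0.812, 0.0442) were called lower. *Dync1h1* (-0.802, adjusted p 0.148) and *Traf3* (-0.293, 0.579) were not called in KO. *Stk30* was called only at day 17 of the days other than 6, where it was higher by 1.54. Among tested neighbours the median difference was 0.42 at day 11, 0.06 at day 17 and -0.32 at day 25. Over all genes tested it was 0.07, 0.09 and 0.13 at these days. *Dio3os*, antisense to the *Dio3* region, stayed between 0 and 0.117 RPKM and was not tested.

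**Figure D5:**
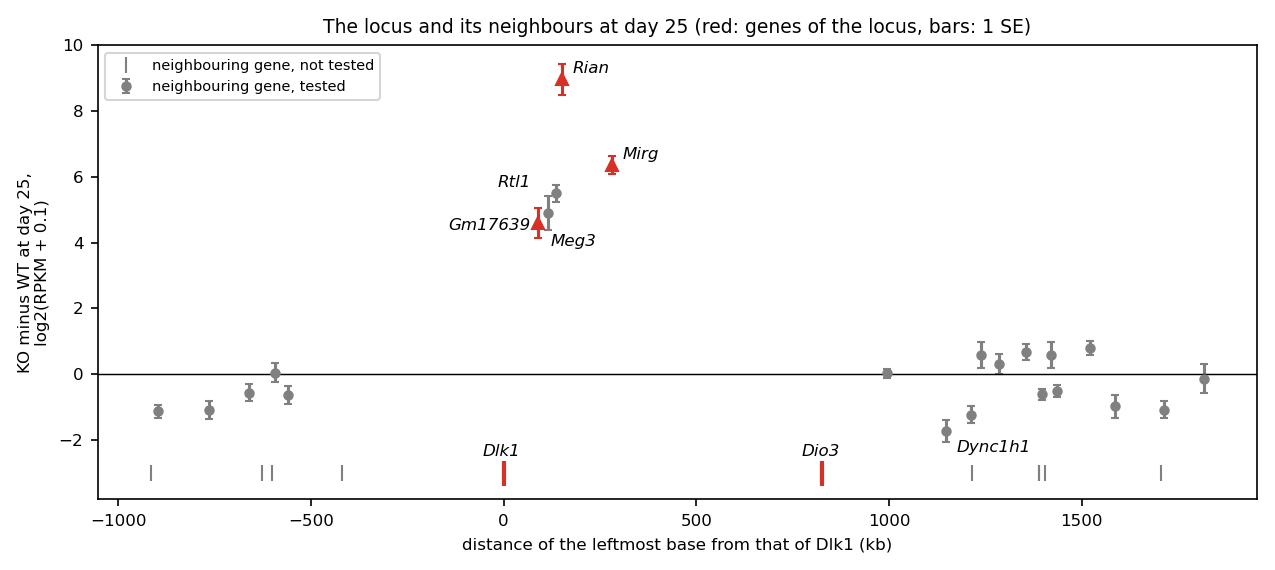
KO minus WT at day 25 on the log2(RPKM + 0.1) scale (limma estimate, bars 1 SE) against the distance in kb from the first base of *Dlk1*, for genes of the locus (red) and their neighbours (grey), with ticks for genes that were not tested. *Meg3*, *Rian*, *Mirg*, *Rtl1* and *Gm17639* lie between 4.60 and 8.97, and the other neighbours between -1.73 and 0.79.

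Genes whose products maintain imprints were read from a list chosen for that role. The list of imprint maintenance factors held 18 genes, all tested. At day 9, 1 of them was lower in KO, *Dnmt1* itself (-2.58, limma adjusted p 4.4e-06), and at day 25, 1 was higher and 4 were lower, while 0.827% of all genes were lower at day 9 and 9.6% higher and 11.3% lower at day 25. *Dppa3*, which protects maternal methylation in the zygote, was higher at day 25 by 1.16 (adjusted p 0.0275). *Dnmt3b*, a de novo methyltransferase, differed by -1.17 (0.00426) and *Aff3*, which binds imprinted control regions, by -1.15 (0.00125). The fourth lower gene, *Trim28*, the corepressor that works with ZFP57, differed by -0.67 (0.0214) and was named after its values were seen. In these 3 the WT level was called higher at day 25 than at day 11 (*Dnmt3b* 1.78, *Aff3* 0.80, *Trim28* 1.86, adjusted p 4.83e-05, 0.0143 and 7.25e-07), whereas the KO level was not called to differ between these days (0.02, -0.29 and 0.58, adjusted p 0.981, 0.557 and 0.0759). For *Dppa3* the WT level was called lower at day 25 than at day 11 (-1.46, limma adjusted p 0.00455), and the KO level was not called (-0.53, 0.457). The median of the list was -0.40 at day 25. Without the third day 1 pair 3 of the list were higher and 4 lower at day 9, and 5 higher and 11 lower at day 25, beside the shares of all genes given for that fit above.

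The Notch pathway, on which DLK1 acts, had 14 of 22 genes tested. None was called at day 9. At day 11, 1 was higher and 1 lower in KO, beside 507 and 146 of all genes tested. At day 17, 1 was higher and 0 lower, beside 1061 and 143. At day 25, 0 were higher and 6 lower in KO, beside 9.6% and 11.3% of all genes. The receptors *Notch2* and *Notch3* differed from WT by -2.12 and -1.94 on the log2 scale (limma adjusted p 2.24e-06 and 0.00321), the glycosyltransferase *Rfng* by -1.36 (0.0032) and the coactivator *Maml1* by -1.17 (0.0243). All 4 were called higher in WT at day 25 than at day 11, *Notch2* by 2.00 (adjusted p 2.32e-06) and *Notch3* by 1.42 (0.0216), and none was called in KO between these days (*Notch2* -0.74, adjusted p 0.0568, *Notch3* -1.35, 0.059). The median of the list was -0.08 at day 9, 0.44 at day 11, 0.33 at day 17 and -0.74 at day 25. Without the third day 1 pair 0 were higher and 1 lower at day 9, and 1 was higher and 9 were lower at day 25, when 39.8% and 26.1% of all genes were. Of 12 genes of thyroid hormone handling, 5 were tested and none was called at any day. Without the third day 1 pair 1 of them was lower at day 9, and 1 was higher and 2 were lower at day 25.

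Imprinted genes of other loci moved in both directions. Of 27 genes, 23 were tested, and in KO at day 9 6 of them rose and 1 fell, while at day 25 6 rose and 5 fell. Over all genes tested 2.46% rose and 0.827% fell at day 9, and 9.6% and 11.3% at day 25. At day 25 *Xlr3a*, an X-linked imprinted gene, was higher by 5.43 (limma adjusted p 4.54e-13) and *H19*, a maternally expressed noncoding RNA, by 4.19 (8.13e-14). *Grb10*, an adaptor of growth factor receptors, differed by -3.86 (2.54e-08) and *Igf2*, a growth factor, by -2.63 (9.01e-11). Between days 11 and 25 *Igf2* was called higher in WT (0.98) and lower in KO (-1.37), and *Grb10* was called in neither (0.47 and -0.78, adjusted p 0.328 and 0.162). The median of the list was 0.56 at day 9 and 0.35 at day 25, beside 0.02 and 0.13 over all genes tested. Leaving out the third day 1 pair gave 15 higher and 1 lower gene at day 9 (1991 and 1262 of all 11615 genes) and 11 higher and 8 lower genes at day 25 (39.8% and 26.1% of all genes).

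Across the 16 group means, the log2 levels of tested genes were compared with those of *Rian*, leaving out *Meg3*, *Rian*, *Mirg*, *Dlk1* and *Dio3*. The most alike were *Gm17639* (Pearson r 0.991), *Ddx3y* (0.987), *Fkbp6* (0.965), *Rtl1* (0.965) and *Pnma5* (0.963). *Gm17639* and *Rtl1* lie inside the locus, and reads from the opposite strand cannot be told apart from their own. *Ddx3y* is a Y-linked RNA helicase gene and *Fkbp6* a gene of the germ line. At day 25 *Fkbp6* had means of 0.0107 RPKM in WT and 4.57 in KO. For *Dlk1* the most alike were *Dolpp1* (0.949), *Camkk1* (0.945), *Nxf3* (0.941), *H2afy2* (0.939) and *Rims1* (0.935). *Nxf3* had means of 0.228 RPKM in WT and 5.79 in KO at day 25. These r describe group means that share libraries, sets and days.

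Because *Ddx3y* followed *Rian*, 4 genes of chromosome Y that are broadly expressed in male cells, *Ddx3y*, *Eif2s3y*, *Kdm5d* and *Uty*, were looked at together, a choice made after the values were seen. From day 6 on all 4 were high where *Rian* was high, but at day 1 they did not follow it. In the third day 1 pair their sum was 2.71 RPKM in WT and 2.30 in KO, against 2.66 and 2.498 in the other WT libraries and 2.20 and 2.16 in the other KO libraries of that day, while *Rian* was lower in the third pair. Their summed level was between 1.25 and 2.92 RPKM in the 8 low-share WT libraries of days other than 6 and between 2.16 and 2.99 RPKM in the 6 low-share KO libraries of days 0, 1 and 3. At day 9 it was 1.25 and 1.29 RPKM in WT and 7.45 and 8.48 in KO. In the libraries of days 11, 17 and 25 it lay between 0.211 and 0.477 RPKM in WT and between 18.3 and 34.96 RPKM in KO. At day 6 it was 5.04 and 5.11 RPKM in the libraries labelled WT and 1.44 and 1.57 in those labelled KO. *Kdm5d*, a histone demethylase, was at most 0.00611 RPKM in WT and at least 0.834 RPKM in KO at days 11, 17 and 25. Whether the WT and KO cells differed in the share of cells that carry a Y chromosome, or the 4 genes differed in level per cell, cannot be told apart from these values, and the part of such a difference in the level of *Meg3*, *Rian* and *Mirg* was not tested.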

How the data were processed

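According to the methods and the submitters' processing notes, the authors trimmed the reads with Trim Galore (0.3.5), aligned them with TopHat2 (2.0.11) to NCBIM37, discarded low mapping qualities and used SeqMonk for gene levels. The deposited values are linear RPKM in 35 columns, and 0 columns were left unmapped. The methods name log2 RPM, the unit that had been assumed. The strand setting and annotation of the counting are not given in the sources used here. The authors' DESeq2 calls were not used.

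Exon lengths came from GENCODE vM1 (99.8% of rows matched). Multiplied by length, between 99.63% and 99.81% of values under 20 reads were whole within 0.1, which gave reads and depth. With voom on these reads, 1095 genes were called higher and 1283 lower at day 25. Ratios used pooled reads with exact 95% intervals and a floor of 3 reads.

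Group means over 34 libraries were fitted on log2(RPKM + 0.1) with limma 3.58.1 in R 4.3.3 (trend). A gene was called at an adjusted p (Benjamini-Hochberg, over all 11615 genes tested) below 0.05. The code was tested on simulated data. Python 3.11.15, pandas 2.3.3 and scipy 1.17.1 did the rest. Promoter windows came from the NCBIM37 genome and microRNAs from RefSeq. The members and the 8 lists were chosen with earlier results of these data known. Named were the 5 members, *Dnmt1*, up to 8 called neighbours with the largest differences, up to 4 called genes per list with the largest differences at day 25, and the 5 genes most like *Rian* and *Dlk1*. Other pseudocounts, filters, samples, scalings, a replicate block, voom and leaving out libraries were tried, and the genes of chromosome Y were looked at after the values were seen.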

Additional observations from a re-analysis of the deposited data

Results flagged for a closer look

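The difference between KO and WT was larger at day 25 than at day 9 for *Rian* (4.49 on the log2(RPKM + 0.1) scale, SE 0.68, limma adjusted p 0.000303) and for *Mirg* (2.30, SE 0.39, adjusted p 0.000906), by a test of the change in the difference itself. At day 25 both KO libraries lay above those of day 9 and both WT libraries below those of day 9 for each gene. Days 9 and 25 differ in gene-read share, so the day and the set of libraries cannot be told apart in this contrast.

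The Dicer KO library entered no comparison and stood above every WT library of days other than 6 for the 3 noncoding RNAs. It had 6.15 RPKM of *Rian* from 1299 reads, 0.877 RPKM of *Meg3* from 409 reads and 0.244 RPKM of *Mirg* from 20 reads, against at most 1.03, 0.279 and 0.109 RPKM in those WT libraries. *Dlk1* (0.0343 RPKM, 5 reads) and *Dio3* (0.0191 RPKM, 1 read) did not stand out. *Dnmt1* was at 34.8 RPKM in this library. Its sum of 10 fibroblast or feeder markers was 46.6 RPKM, the highest of the 35 libraries. Its sum of the 4 genes of chromosome Y was 4.28 RPKM, against at most 2.92 RPKM in those WT libraries. The part of these markers and genes in the level of the locus was not tested. With 1 library there was no replicate and no test.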

How the results depend on the processing

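The calls of *Rian* and *Mirg* at days 9, 11, 17 and 25 and of *Meg3* at days 11, 17 and 25 held under every alternative run, including the fit without day 6, which was added after the data were seen and changed no call of the 5 genes. The fit without the third day 1 pair, the fit of only the groups compared and the replicate block called far more genes. At day 3, 70 genes were higher and 7 lower, against 902 and 483, 1324 and 829, and 724 and 327 in these fits, and at day 25 1115 and 1315, against 4620 and 3035, 4392 and 2895, and 4472 and 2961. Median centring subtracted from each library its own median log2 level over the genes tested. It gave 536 higher and 412 lower at day 9 in place of 286 and 96, and 3005 and 2052 at day 25. List counts moved by over 1.5 times in 149 of 530 recomputed counts. Reads set the limit for *Dlk1* and *Dio3*, with at most 64 and 27 per library.

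*Meg3* at day 6 lost its call with a pseudocount of 0.01 (-2.65), median centring (-2.10) and voom (-2.71) and without any 1 library (-2.21 to -2.13), and at day 9 with a pseudocount of 0.01 (3.17) and voom (3.201). *Mirg* in KO at day 25 against day 11 lost its call with a pseudocount of 0.01 (0.97), median centring (0.98) and voom (0.97) and without any 1 library (0.91 to 1.00). Calls were gained by *Meg3* at day 3 with only the groups compared (0.51) and for the change from day 9 to day 25 with only the groups compared (1.85) and without the third day 1 pair (1.85). *Rian* at day 3 (0.86) gained a call in those fits and with the replicate block, and in KO at day 25 against day 11 with a pseudocount of 1 (0.68), only the groups compared (0.70) and without the third day 1 pair (0.70). *Mirg* at day 3 (0.80) gained a call with only the groups compared, without the third day 1 pair and with the replicate block. The cause was not tested.

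Untested in the main filter, *Dlk1* was called with no filter at days 9 (0.67), 11 (1.83), 17 (0.84) and 25 (0.98) and in WT at day 25 against day 11 (0.89), and with the filter at 0.1 at the same contrasts except day 9. *Dio3* was called under both at day 17 (1.82). As differences without a test, *Dlk1* gave with a pseudocount of 1 -0.072, 0.10, 0.37, 0.17 and 0.25 at days 6, 9, 11, 17 and 25 and 0.14 in WT at day 25 against day 11. With a pseudocount of 0.01 it gave 0.55, -1.68, 1.67, 3.70, 1.42 and 1.44 at days 3, 6, 9, 11, 17 and 25, -0.23 for the change from day 9 to day 25 and 2.31 in WT. Median centring gave -0.47 at day 6 and 0.66 at day 17, and without the third day 1 pair day 1 gave 0.14. *Dio3* gave with a pseudocount of 1 -0.023, -0.033, 0.088, 0.43 and 0.11 at days 0, 3, 11, 17 and 25 and 0.045 in KO at day 25 against day 11. With a pseudocount of 0.01 it gave -0.43, -0.36, 1.17, 0.98, 3.0997 and 1.04 at days 0, 3, 9, 11, 17 and 25 and -0.13 for the change from day 9 to day 25. Median centring gave -0.24 at day 3, and leaving out 1 library moved that change between -0.11 and 0.77.

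The labels number the replicates alike in WT and KO, but do not say whether same-numbered libraries were paired. The correlation of same-numbered deviations was -0.02 at day 0, -0.05 at day 3, 0.01 at day 6, 0.09 at day 9, 0.26 at day 11, -0.16 at day 17 and 0.04 at day 25, and between 0.78 and 0.91 at day 1, where it followed the set of libraries. With 2 libraries per group both numbers of a day give the same value, so these correlations cannot settle the pairing. With the replicate number as a block, *Rian* (0.86, limma adjusted p 0.00778) and *Mirg* (0.80, 0.0144) were called at day 3, and no other call of the 5 genes changed.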
